A study of Mus musculus with 12 samples.

Results

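The cone phototransduction cascade was followed through 10 genes that carry the light signal in cone photoreceptors, taken by gene symbol: the opsins Opn1sw and Opn1mw, the transducin subunits Gnat2, Gnb3 and Gngt2, the phosphodiesterase subunits Pde6c and Pde6h, the channel subunits Cnga3 and Cngb3, and the arrestin Arr3. They are 10 of the 53028 genes in the deposited gene table, and all 10 were among the 16486 genes tested. Their annotated transcripts number 45 of the 141450 in the transcript table, and 39 of these 45 were among the 46931 tested. The data are poly(A) RNA from mouse retina in 12 libraries, 3 in each of 4 groups. The groups are Pilrb1/2 -/- mice at 12 months of age, Pilrb1/2+/+ mice at 12 months, Pilrb1/2 -/- mice at P28 (28 days after birth) and Pilrb1/2+/+ mice at P28, called KO and WT here. All mice came from a C57BL/6J background, in which the locus was edited with CRISPR in zygotes and the founder line was backcrossed. The series text names Pilra beside Pilrb1/2 as deleted, whereas the sample labels name Pilrb1/2 only. The deletion is present in every cell of the animal, and whole retina holds many cell types besides cones, which are a small minority of mouse photoreceptors. Nothing in the labels ties a library to an animal, so p-values here measure only the spread between libraries, which may be technical. The exceptions are 12-month WT and P28 KO, where Xist, given below, marks libraries of both sexes and so of different animals. Their spread is not only technical.

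Cones serve daylight and colour vision. Light activates an opsin, the opsin activates the G protein transducin, transducin removes the inhibitory subunit from phosphodiesterase 6, cyclic GMP falls and the cyclic-nucleotide-gated channel closes, after which arrestin quenches the opsin. Cones use their own version of almost every component, so these transcripts serve as cone markers in whole retina. Gnb3 is an exception, since ON bipolar cells use it too. Most mouse cones make both opsins, with more short-wavelength opsin in the ventral retina.

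Depth read back from the transcript table ran from 14.1 to 26.1 M reads per library, and 3 reads corresponded to a value of 0.109 to 0.190 on the CPM scale. Pilrb1 and Pilrb2 were each listed at 0 in 11 of the 12 libraries, so they could not be used to check the genotype labels. Pilra, which only the series text names as deleted, was low but above 0 in all 12 libraries. It had 0.441, 1.16 and 0.819 CPM in P28 KO, against 0.133, 0.167 and 0.170 CPM in P28 WT. At 12 months it had 0.0556, 0.309 and 0.293 CPM in KO, against 0.159, 0.221 and 0.268 CPM in WT. Which genes of the locus were removed was not tested. Xist, the RNA of the inactive X chromosome, was above 100 CPM in 0 of 3 KO and 2 of 3 WT libraries at 12 months, and in 2 of 3 KO and 0 of 3 WT libraries at P28, so the sexes were not balanced within either age. Summed lens transcripts, from 10 markers, stood at 5705 CPM in P28 KO library 2, 2159 CPM in P28 WT library 3 and 828 CPM in 12-month KO library 2, and at 688 CPM or less in the other 9 libraries. The KO effect over all genes also followed base composition. Across 16274 genes its Spearman correlation with transcript GC content was -0.79 at 12 months and -0.35 at P28, and with transcript length 0.23 at 12 months and 0.41 at P28. Each member is therefore given below also after removal of a smooth GC and length trend from every library.

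All 10 genes were detected in every library. Levels were compared between genes per length, as the sum of a gene's transcript RPKM (reads per kilobase of transcript and 1e6 reads). The sums include noncoding forms, so the order below is not that of coding RNA. By group mean, retained-intron forms held 65.6 to 78.6% of Arr3 RPKM and 80.3 to 88.2% of Gnb3 RPKM. The noncoding form Gnat2-202 held 48.2 to 55.8% of Gnat2 RPKM. Arr3 was the highest in every group, at 239.8 RPKM in 12-month KO, 335 RPKM in 12-month WT, 221 RPKM in P28 KO and 262 RPKM in P28 WT on average. Cnga3 was the lowest in every group, at 2.40, 2.95, 3.48 and 3.48 RPKM in the same order. The ratio of highest to lowest mean was 99.8 in 12-month KO, 113 in 12-month WT, 63.5 in P28 KO and 75.4 in P28 WT. In 12-month KO the order was Arr3, Opn1sw, Gnat2, Opn1mw, Pde6c, Gnb3, Gngt2, Pde6h, Cngb3 and Cnga3. Within that order the libraries overlapped between Opn1sw and Gnat2, between Pde6c and Gnb3, between Gnb3 and Gngt2, and between Pde6h and Cngb3. In 12-month WT the order was Arr3, Opn1sw, Gnat2, Opn1mw, Gnb3, Gngt2, Pde6c, Pde6h, Cngb3 and Cnga3, and only Opn1mw and Gnb3 overlapped as neighbours. Gnb3 thus stood above Gngt2 and Pde6c in 12-month WT, at 94.7 RPKM, while at 35.0 RPKM in 12-month KO its libraries overlapped those of both. At P28 the neighbours that overlapped were Opn1sw with Opn1mw, Pde6c with Gngt2 and Gngt2 with Gnb3 in KO, and Opn1mw with Gnat2 and Gngt2 with Gnb3 in WT.

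**Figure D1:**
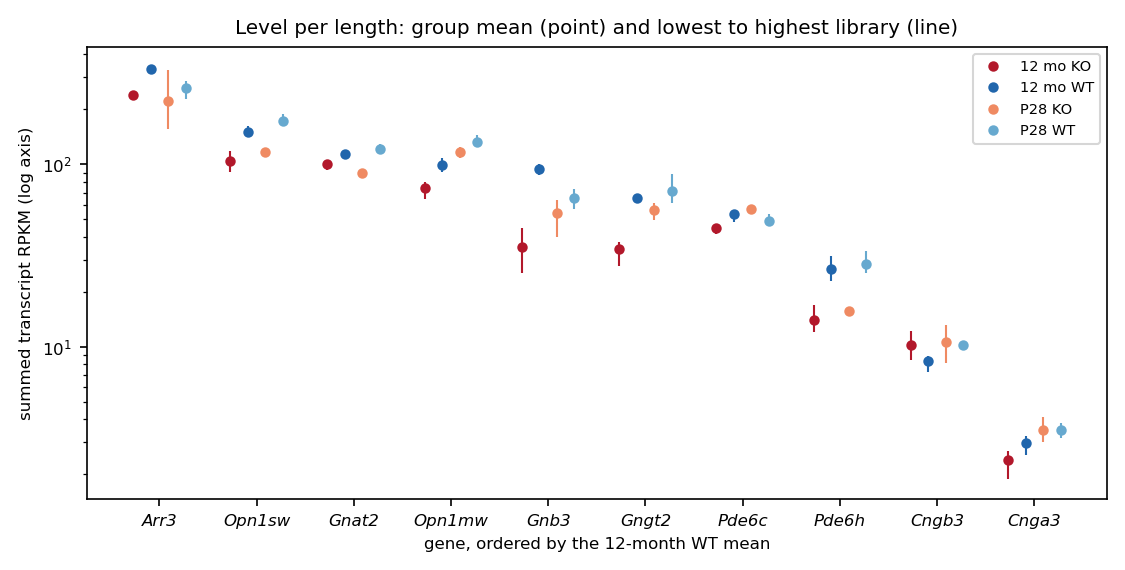
Level per length of the 10 cone cascade genes, as summed transcript RPKM on a log axis, by group; points are means of 3 libraries and lines run from the lowest to the highest library. Summed over coding and noncoding forms, Arr3 leads and Cnga3 is lowest in all 4 groups.

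At 12 months, 7 of the 10 genes were lower in KO than in WT retina and 0 were higher (limma, adjusted p under 0.05 over all genes tested). In that comparison 39.6% of all genes tested were called, 23.5% lower and 16.1% higher. The 7 were Opn1sw, Opn1mw, Gnat2, Gnb3, Gngt2, Pde6c and Pde6h, and the 3 not called were Cnga3, Cngb3 and Arr3. The median log2 fold change of the 10 was -0.48, against -0.03 over all genes tested. The KO and WT libraries did not overlap for 8 genes, all lower in KO, against 59.1% of all genes tested whose libraries did not overlap in either direction. After removal of the GC and length trends 7 genes were lower, where 6.75% of all genes were called, 5.27% lower. Opn1mw was no longer among these 7, and Cngb3 was. In bulk RNA fewer cones and less RNA per cone cannot be told apart.

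At P28, 3 of the 10 genes were lower in KO, Opn1sw, Gnat2 and Pde6h, and 0 were higher; of all genes tested 1.49% were called, 0.491% lower. The same 3 were called after removal of the GC and length trends, where 1.65% of all genes were called. The median log2 fold change of the 10 was -0.25, against -0.01 over all genes. Libraries did not overlap for 3 genes lower and 1 higher in KO, against 23.8% of all genes. These P28 calls rested on the whole set of libraries. The count was 0 without P28 KO library 3, without any single WT library of either age, with a term for sex, with male libraries only or with the P28 groups alone. It was 1 without P28 KO library 1 and 4 without P28 KO library 2. The count over all genes tested, 246 as reported, moved as well. It was 6 without P28 KO library 3, 3 to 81 without a single WT library, 1 with the term for sex, 23 with male libraries only and 0 with the P28 groups alone, and 328 without P28 KO library 1 and 1404 without P28 KO library 2.

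**Figure D2:**
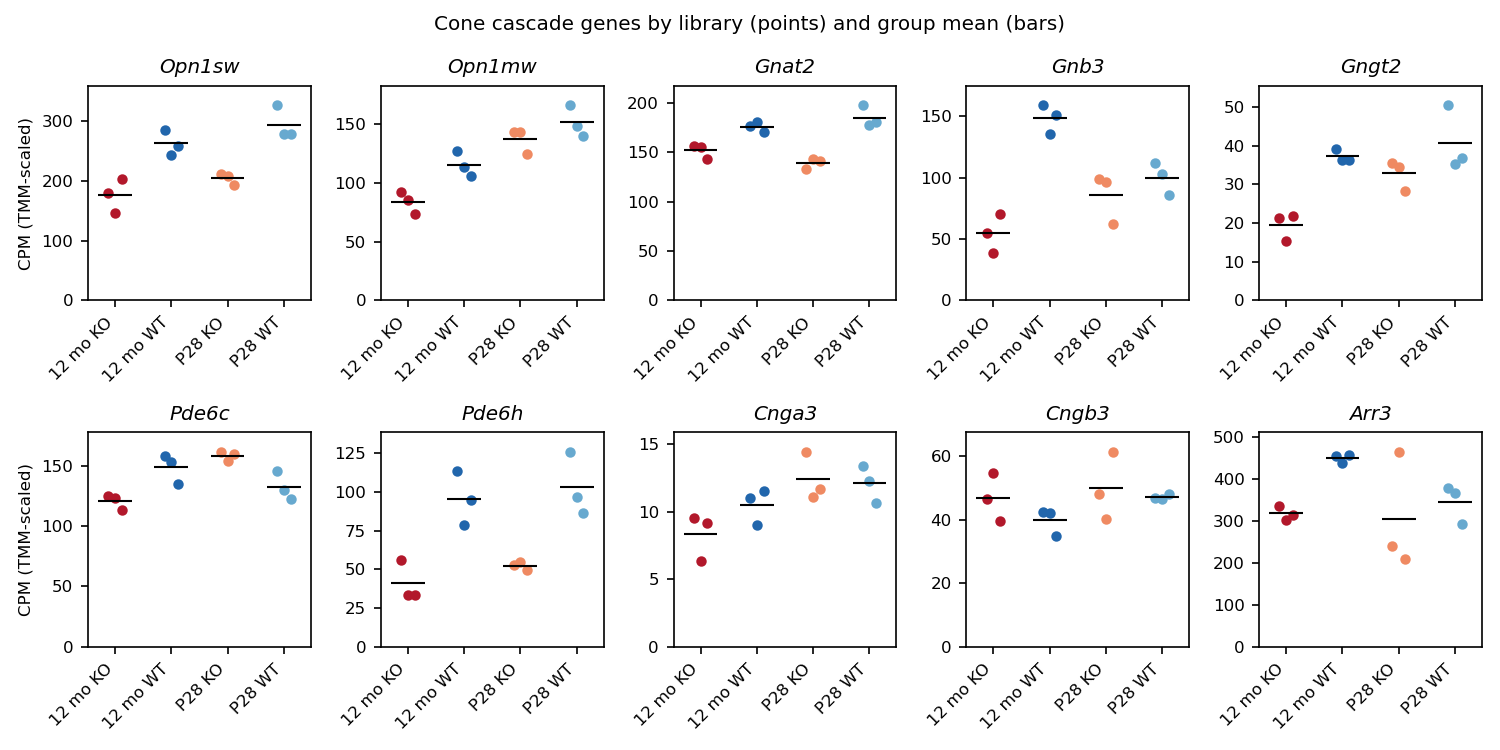
CPM of each cone cascade gene in each of the 12 libraries (points), with the mean of each group of 3 (bars); each vertical axis starts at 0. At 12 months the 3 KO points lie below the 3 WT points for 8 genes, all but Cnga3 and Cngb3.

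Opn1sw encodes the short-wavelength cone opsin. It had 179.5, 147 and 203 CPM in 12-month KO retina, against 286, 244 and 259 CPM in 12-month WT retina. At P28 it had 212, 208 and 194 CPM in KO, against 327, 279 and 278 CPM in WT. Every KO library lay below every WT library at both ages. The log2 fold change was -0.58 ± 0.115 (SE; limma adjusted p = 0.00378) at 12 months and -0.52 ± 0.115 (adjusted p = 0.0457) at P28, and with the trends removed -0.53 (adjusted p = 0.0220) and -0.47 (adjusted p = 0.0477). Among its transcripts at 12 months the coding form Opn1sw-203 was lower in KO (38.5, 27.3 and 45.1 RPKM, against 65.9, 54.3 and 59.7 RPKM in WT; log2 fold change -0.72, adjusted p = 0.0372). The coding form Opn1sw-201 had a log2 fold change of -0.32 (adjusted p = 0.0618); 397 of its bases overlap exons of Calu on the other strand, and whether the authors' counting used strand is not stated.

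Opn1mw, on the X chromosome, encodes the medium-wavelength cone opsin. It had 92.7, 85.4 and 73.9 CPM in 12-month KO retina, against 127, 114 and 106 CPM in 12-month WT retina. At P28 the values were 144, 143 and 125 CPM in KO, against 166, 148 and 140.3 CPM in WT. The groups were apart at 12 months and overlapped at P28. The log2 fold change was -0.46 ± 0.107 (limma adjusted p = 0.00699) at 12 months and -0.14 ± 0.107 (adjusted p = 0.475) at P28. With the GC and length trends removed the P28 value was -0.03 (adjusted p = 0.895) and the 12-month value -0.34 (adjusted p = 0.0599); it was, with a sex term -0.43 (adjusted p = 0.0342), and in male libraries, of which WT held 1 at 12 months, -0.34 (adjusted p = 0.130). The main coding form Opn1mw-201, at 73.4 to 83.2% of the gene's RPKM by group mean, had a log2 fold change of -0.41 (adjusted p = 0.0528), and the noncoding form Opn1mw-205 was lower (-1.61, adjusted p = 0.0257).

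The ratio of Opn1sw to Opn1mw CPM, a single value per library, was 1.94, 1.73 and 2.74 in 12-month KO and 2.25, 2.15 and 2.45 in 12-month WT. At P28 it was 1.48, 1.45 and 1.55 in KO and 1.97, 1.88 and 1.98 in WT. The ratio was thus lower in every P28 KO library than in any P28 WT library, while at 12 months the KO libraries lay on both sides of WT. Over both ages the mean log2 ratio differed by -0.25 (two-sided exact permutation within age, 400 arrangements, p = 0.05). Within 12 months alone the exact p was 0.6 (difference -0.12), and within P28 alone it was 0.1 (difference -0.38), the smallest value that 3 against 3 libraries can give. Leaving out single libraries moved the exact p over both ages between 0.005 and 0.165.

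Gnat2, the cone transducin alpha subunit, had 157, 155 and 143 CPM in 12-month KO retina, against 177, 181 and 170.1 CPM in 12-month WT retina. In P28 retina it had 133, 143 and 141 CPM in KO, against 197, 177 and 180.3 CPM in WT. The libraries were apart at both ages, more widely at P28. Its log2 fold change was -0.21 ± 0.0757 (limma adjusted p = 0.0411) at 12 months and -0.41 ± 0.0757 (adjusted p = 0.0291) at P28, and with the trends removed -0.30 (adjusted p = 0.0271) and -0.36 (adjusted p = 0.0233). The 12-month call was lost when any 1 of the 6 libraries of that age, or P28 WT library 2 or 3, was left out, and it held under 7 of 13 other settings. 3 coding forms fell together at 12 months, Gnat2-201 (-0.92, adjusted p = 0.0105), Gnat2-203 (-1.05, adjusted p = 0.020) and Gnat2-206 (-0.98, adjusted p = 0.0401). The noncoding form Gnat2-202 made up 55.8% of the gene's RPKM in 12-month KO and 48.2% in 12-month WT, and was not called.

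Gnb3, the cone transducin beta subunit, had 55.2, 38.6 and 70.8 CPM in 12-month KO retina, against 159, 135 and 151 CPM in 12-month WT retina. The highest KO library stood below the lowest WT library by a wide margin. At P28 it had 98.9, 96.3 and 61.9 CPM in KO, against 112, 103 and 85.5 CPM in WT, and the groups overlapped. The log2 fold change was -1.46 ± 0.209 (limma adjusted p = 0.00248) at 12 months, the largest of the 10 genes on the deposited values, and -0.24 ± 0.209 (adjusted p = 0.531) at P28. Its transcripts averaged 55.9% GC, above 87.8% of the genes tested, and with the trends removed the 12-month value was -0.90 (adjusted p = 0.0126), smaller than the -1.29 of Pde6h, and the P28 value -0.06 (adjusted p = 0.850). The 9 ON bipolar markers, summed, ranged from 1496 to 1587 CPM in 12-month KO and from 1499 to 1526 CPM in 12-month WT, with all 9 detected. The coding form Gnb3-201 was lower in 12-month KO (1.84, 1.54 and 3.25 RPKM, against 12.1, 7.41 and 8.47 RPKM in WT; log2 fold change -2.07, adjusted p = 0.0116). The retained-intron form Gnb3-202, which held 63.2 to 73.6% of the gene's RPKM by group mean, was lower as well (23.5, 15.1 and 27.9 RPKM in KO, against 70.6, 64.1 and 69.4 RPKM in WT; -1.66, adjusted p = 0.00906). So was the noncoding form Gnb3-204 (-1.51, adjusted p = 0.0172), while the retained-intron form Gnb3-203 was not called (-0.35, adjusted p = 0.113).

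Gngt2, the cone transducin gamma subunit, had 21.4, 15.5 and 21.8 CPM in 12-month KO retina, against 39.1, 36.2 and 36.3 CPM in 12-month WT retina. P28 retina held 35.6, 34.5 and 28.4 CPM in KO, against 50.4, 35.1 and 36.7 CPM in WT. The groups stood apart at 12 months and overlapped at P28. Its log2 fold change was -0.91 ± 0.157 (limma adjusted p = 0.00293) at 12 months and -0.29 ± 0.157 (adjusted p = 0.298) at P28. Its transcripts, at 573 bases on average, were shorter than those of all but 2.75% of the genes tested, and with the trends removed the values were -0.54 (adjusted p = 0.0244) at 12 months and -0.09 (adjusted p = 0.690) at P28. Of its forms, Gngt2-207 was lower at 12 months (17.1, 12.5 and 19.5 RPKM in KO, against 35.0, 32.0 and 23.9 RPKM in WT; -0.89, adjusted p = 0.0187). Gngt2-205, Gngt2-206 and Gngt2-207 share bases with Abi3 on the other strand, a gene at 1.08 CPM or less in every library.

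**Figure D3:**
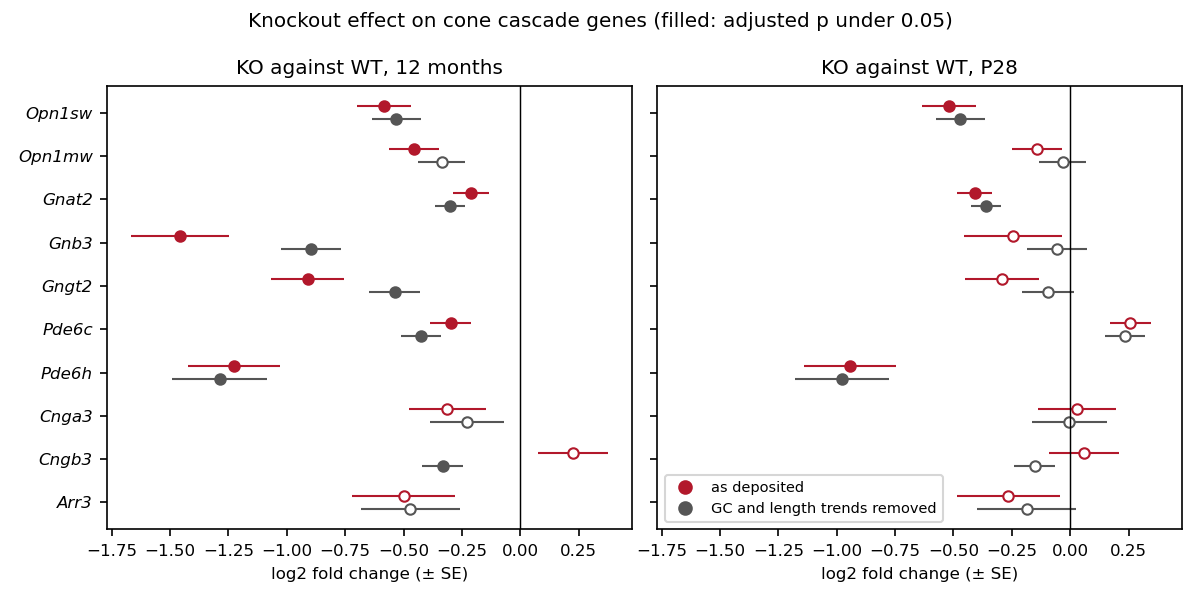
Log2 fold change of KO over WT with its standard error for the 10 cone cascade genes at 12 months (left) and P28 (right), from the deposited gene values and after removal of GC and length trends; filled points passed an adjusted p of 0.05. Removal of the trends moves Gnb3 from -1.46 to -0.90 and turns Cngb3 from 0.23 to -0.33 at 12 months.

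Pde6c, the catalytic subunit of cone phosphodiesterase, stood on opposite sides of WT at the 2 ages. It had 125, 123 and 114 CPM in 12-month KO retina, against 158, 153 and 135 CPM in 12-month WT retina. At P28 it had 161, 154 and 159.6 CPM in KO, against 146, 129.5 and 122 CPM in WT. All KO libraries were below WT at 12 months and above WT at P28. The 12-month fall passed the test (log2 fold change -0.30 ± 0.0888, limma adjusted p = 0.0194), and the P28 value did not (0.26 ± 0.0888, adjusted p = 0.127). With the trends removed they were -0.42 (adjusted p = 0.0220) and 0.23 (adjusted p = 0.156). The difference between the ages was -0.56 ± 0.126 (adjusted p = 0.0647) and -0.66 (adjusted p = 0.0627) with the trends removed. The 12-month call was lost without 12-month KO library 3, WT library 1 or WT library 2, and its adjusted p was 0.105 with a sex term (-0.24) and 0.362 in male libraries only. Of its 2 coding forms Pde6c-201 was lower at 12 months (18.2, 18.5 and 19.0 RPKM in KO, against 25.7, 25.3 and 21.9 RPKM in WT; -0.38, adjusted p = 0.0487).

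Pde6h encodes the small inhibitory subunit that holds cone phosphodiesterase inactive in the dark. It had 55.9, 33.8 and 33.5 CPM in 12-month KO retina, against 114, 78.4 and 95.1 CPM in 12-month WT retina. In P28 retina the values were 53.1, 54.8 and 49.6 CPM in KO, against 126, 97.0 and 86.4 CPM in WT. KO libraries lay below all WT libraries at both ages. The log2 fold change was -1.23 ± 0.195 (limma adjusted p = 0.00262) at 12 months and -0.94 ± 0.195 (adjusted p = 0.0388) at P28, and -1.29 (adjusted p = 0.0132) and -0.98 (adjusted p = 0.0383) with the trends removed.

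The size of the Pde6h change depended on how its transcripts were combined. When each transcript's RPKM was multiplied by its length and summed, which gives read levels on the CPM scale, Pde6h had 62.7, 56.7 and 51.7 in 12-month KO, against 80.2, 67 and 72.1 in 12-month WT. The same sums at P28 were 54.9, 53.6 and 53.3 in KO, against 86.3, 73.4 and 76.8 in WT. On that scale the log2 fold change was -0.35 (limma adjusted p = 0.0122) at 12 months and -0.54 (adjusted p = 0.0309) at P28, still lower but smaller than on the deposited gene scale. The ratio of the deposited gene value to the summed reads varied 2.34-fold over the libraries for Pde6h. It varied by at most 1.17-fold for the other 9 genes, and of 10071 genes above 5 CPM in every library 0.546% reached the spread of Pde6h.

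The transcripts of Pde6h moved unequally. The coding form Pde6h-204, 392 bases long, had 1.97, 0 and 0.159 RPKM in 12-month KO, against 14.4, 8.67 and 9.44 RPKM in 12-month WT. At P28 it had 4.23, 3.85 and 3.11 RPKM in KO, against 14.5, 10.5 and 8.72 RPKM in WT. It was lower in KO at 12 months (log2 fold change -4.82 ± 0.825 on log2(RPKM + 0.1), limma adjusted p = 0.0117), and was not called at P28 (-1.55 ± 0.825, adjusted p = 0.429). For a form of this length, 12-month KO libraries 2 and 3 lay below the floor of 3 reads. The size of the 12-month value therefore depends on the added 0.1. The full-length coding form Pde6h-202 had 8.14, 7.41 and 6.63 RPKM in 12-month KO, against 9.83, 8.54 and 8.59 RPKM in 12-month WT (-0.28, adjusted p = 0.119). Its P28 values were 7.04, 6.96 and 6.73 RPKM in KO, against 10.5, 9.06 and 9.84 RPKM in WT (-0.49, adjusted p = 0.113). The retained-intron form Pde6h-201 had log2 fold changes of -0.26 (adjusted p = 0.211) at 12 months and -0.49 (adjusted p = 0.162) at P28. Pde6h-204 made up 4.3% of the gene's summed RPKM in 12-month KO and 40.1% in 12-month WT, and 23.6% in P28 KO and 39.0% in P28 WT.

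In the GRCm38 annotation Pde6h lies on the plus strand of chromosome 6, from 136923832 to 136968865. Pde6h-204 starts 30691 bases before Pde6h-202 and has 2 upstream exons of 76 and 60 bases. All 136 of these bases overlap exons of Arhgdib on the other strand. Arhgdib, a small GTPase regulator of blood cells, had 2.87, 3.24 and 1.56 CPM in 12-month KO, against 3.77, 3.71 and 3.36 CPM in 12-month WT, and 4.09, 3.76 and 2.47 CPM in P28 KO, against 6.29, 3.49 and 3.67 CPM in P28 WT. Reads of Pde6h-204 and Arhgdib in these bases can be told apart only by strand, whose use in the counting is not stated; the remaining exons of Pde6h-204 are shared with Pde6h-202 in whole or in part.

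**Figure D4:**
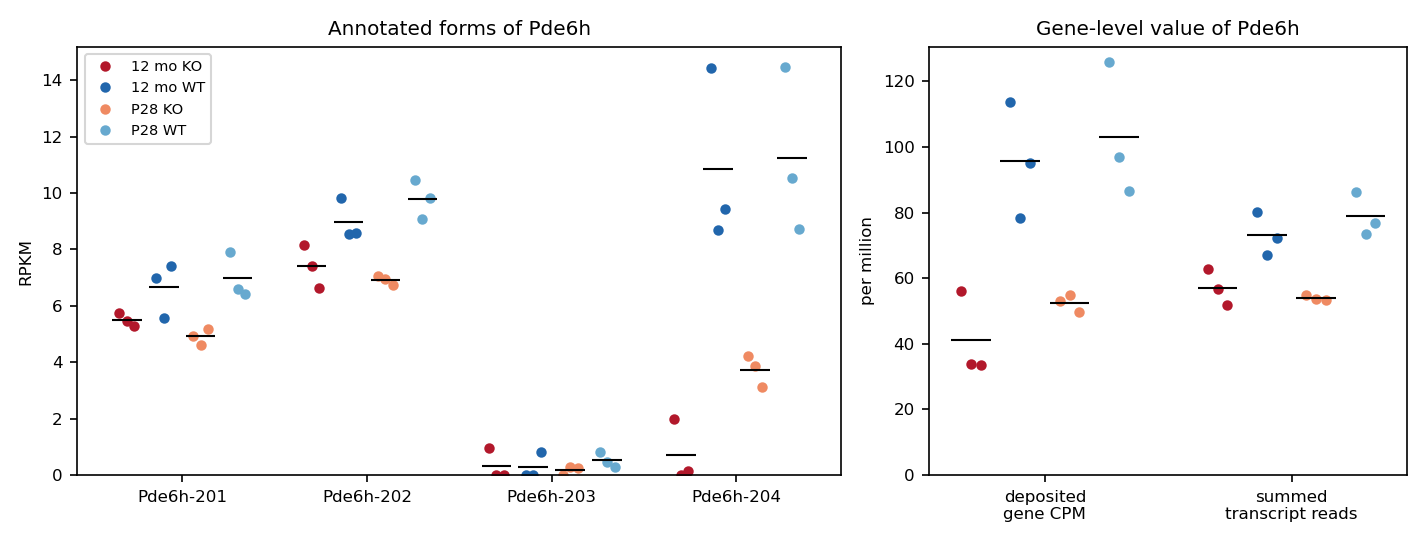
Left, RPKM of the 4 annotated Pde6h transcripts in each library, with group means as bars; right, the deposited Pde6h gene CPM and the reads summed over its transcripts on the same scale. Pde6h-204 lies between 0 and 1.97 RPKM in 12-month KO and between 8.67 and 14.4 RPKM in 12-month WT, and the group means of the summed reads lie closer together than those of the gene CPM.

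Cnga3, the alpha subunit of the cone channel, had 9.54, 6.32 and 9.19 CPM in 12-month KO retina, against 11.01, 9.03 and 11.5 CPM in 12-month WT retina. P28 values were 14.4, 11.1 and 11.7 CPM in KO, against 13.4, 12.3 and 10.6 CPM in WT. The groups overlapped at both ages, and neither the 12-month log2 fold change (-0.31 ± 0.166, limma adjusted p = 0.149) nor the P28 value (0.03 ± 0.166, adjusted p = 0.942) passed. With the trends removed the 12-month value was -0.23 (adjusted p = 0.375) and the P28 value -0.0036 (adjusted p = 0.994). Nearly all of its RPKM came from the coding form Cnga3-201. Cngb3, the beta subunit of the same channel, had 46.6, 54.7 and 39.7 CPM in 12-month KO, against 42.3, 42.3 and 34.9 CPM in 12-month WT. At P28 it had 48.1, 40.1 and 61.3 CPM in KO, against 47.0, 46.5 and 47.9 CPM in WT. Here too the groups overlapped at both ages, with log2 fold changes of 0.23 ± 0.150 (adjusted p = 0.243) and 0.06 ± 0.150 (adjusted p = 0.860). Cngb3 transcripts had 39.9% GC, lower than all but 6.62% of the genes tested. With the GC and length trends removed its 12-month value was -0.33 (adjusted p = 0.0446) and its P28 value -0.15 (adjusted p = 0.364), so the sign for this gene depended on that step.

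Arr3, on the X chromosome, encodes cone arrestin. It had 336, 302 and 314 CPM in 12-month KO retina, against 454, 438 and 456 CPM in 12-month WT retina. At P28 it had 239, 464 and 209 CPM in KO, against 377, 365 and 293 CPM in WT. The 12-month groups did not overlap, whereas P28 KO library 2, the library with 5705 CPM of lens transcripts, lay above all WT libraries. The log2 fold change was -0.50 ± 0.220 (limma adjusted p = 0.0859) at 12 months and -0.27 ± 0.220 (adjusted p = 0.517) at P28, and with the trends removed -0.47 (adjusted p = 0.176) and -0.19 (adjusted p = 0.679). Without P28 KO library 2 the shared spread was smaller, and both ages passed, with -0.50 (adjusted p = 0.00224) at 12 months and -0.62 (adjusted p = 0.00855) at P28. In male libraries only the 12-month value was -0.52 (adjusted p = 0.0479), and with a sex term it was -0.38 (adjusted p = 0.305). The coding form Arr3-201 was lower at 12 months (44.9, 40.9 and 47.8 RPKM in KO, against 88.4, 75.5 and 80.7 RPKM in WT; -0.87, adjusted p = 0.0293). Retained-intron forms held 78.6% of Arr3 RPKM in 12-month KO and 72.5% in 12-month WT, and 72.7% in P28 KO and 65.6% in P28 WT.

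Over all transcripts of the 10 genes, 12 of the 39 tested were called at 12 months, all lower in KO, while 16.2% of all transcripts tested were called in either direction. By kind these were 9 of 25 coding forms, 1 of 9 retained-intron forms and 2 of 5 other noncoding forms. Shares of all transcripts by direction or by kind are not given here, so the split only describes these forms. The count was 7 without 12-month KO library 1, 4 without KO library 2, 6 without WT library 2, 5 without WT library 3 and 0 without WT library 1. At P28 limma called 0 of 39, with 14 at an unadjusted p under 0.05, where 0.239% of all transcripts tested were called; without P28 KO library 2 it called 3.

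Averaged over both ages, 6 genes were lower in KO, Opn1sw, Opn1mw, Gnat2, Gnb3, Gngt2 and Pde6h, where 35.2% of all genes were called, 20.8% lower. All 6 were called when any single library was left out. With the GC and length trends removed Opn1mw was not called (-0.18, limma adjusted p = 0.105), and Cngb3 was called lower (-0.24, adjusted p = 0.0302). Of the 6 genes Pde6h had the largest effect on the deposited values (-1.08 ± 0.138, limma adjusted p = 0.00127). With transcript reads summed per gene, however, it had -0.44, against -0.95 for Gnb3 and -0.50 for Opn1sw. It was called over both ages under all 12 other settings as well, while in male libraries only 2 genes were called, Pde6h and Arr3. The difference of the KO effect between 12 months and P28 passed for 0 of the 10 genes (limma; 3 at an unadjusted p under 0.05, Gnb3, Gngt2 and Pde6c), against 0.176% of all genes. For Gnb3 the difference was -1.21 ± 0.296 (adjusted p = 0.0671). It passed for 1 gene without 12-month KO library 3 or without P28 KO library 2, and for 2 genes without P28 KO library 3.

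Between ages within WT retina, 0 of the 10 genes passed (limma; 2 at an unadjusted p under 0.05), and 5.40% of all genes did. The nearest was Opn1mw, with 115 ± 10.6 CPM at 12 months and 152 ± 13.2 CPM at P28 (SD, n = 3 each; log2 fold change -0.39, adjusted p = 0.0552). Gnb3 averaged 148 ± 12.0 CPM at 12 months and 100.1 ± 13.4 CPM at P28 (0.57, adjusted p = 0.151). Within KO retina 5 genes were lower at 12 months than at P28 and 0 were higher, where 27.2% of all genes were called, 13.9% lower. These were Opn1mw (-0.71, adjusted p = 0.000892), Gngt2 (-0.73, adjusted p = 0.00593), Pde6c (-0.39, adjusted p = 0.00785), Cnga3 (-0.53, adjusted p = 0.0326) and Gnb3 (-0.65, adjusted p = 0.0375). This comparison also followed GC content over all genes (Spearman correlation -0.54). With the GC and length trends removed Gnb3 (-0.36, limma adjusted p = 0.0648) and Cnga3 (-0.43, adjusted p = 0.0711) were not called. Cngb3 was then called lower (-0.37, adjusted p = 0.0116). The age and genotype comparisons share libraries, and which sexes they hold differs, so they are given side by side only. The count within KO was 3 without 12-month KO library 2 or without P28 KO library 1, and 1 in male libraries only.

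Rods use paralogs of the same cascade, and 9 rod genes were set beside the cone genes. At 12 months 5 of the 9 rod genes were lower in KO and 0 higher, where 23.5% of all genes were lower, and with the GC and length trends removed 3 were lower, where 5.27% of all genes were. At P28 limma called 0 of 9, and 1 with the trends removed. Summed over 9 rod markers, all detected, the level was 15100, 12696 and 14863 CPM in 12-month KO, against 18935, 18078 and 17742 CPM in 12-month WT. At P28 it was 13637, 14168 and 12446 CPM in KO, against 18718, 16138 and 15567 CPM in WT. Rod marker sums were thus lower in every KO library than in any WT library at both ages, as was the cone sum at 12 months. The rod markers did not move as a list at 12 months. Gnat1 (2497 to 3998 CPM in KO, 6543 to 7564 CPM in WT), Pde6b, Pde6g, Cngb1 and Nrl were lower in every KO library than in any WT library. Pde6a, Gngt1 and Nr2e3 overlapped, and Cnga1 was higher, at 1481 to 1577 CPM in KO and 1215 to 1385 CPM in WT. The 5 erythrocyte markers, summed, were also lower at 12 months, at 4.33 to 9.94 CPM in KO and 19.2 to 34.1 CPM in WT. The 5 Mueller glia markers summed to 2122 to 2395 CPM in 12-month KO and 2422 to 2671 CPM in 12-month WT, but did not move as a list. Glul, Rlbp1 and Kcnj10 were lower in every KO library than in any WT library, Slc1a3 overlapped, and Aqp4 was higher, at 211 to 268 CPM in KO and 184 to 203 CPM in WT. The mitochondrial genome gave 9.94 to 12.6% of the signal in 12-month KO and 7.36 to 8.29% in 12-month WT. The part of these levels in the cone results was not tested.

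Within pairs the rod gene did not always move like its cone counterpart. Pde6g, the rod inhibitory subunit, had a log2 fold change of -1.38 (limma adjusted p = 0.00316) at 12 months beside -1.23 for Pde6h. Gnat1, the rod transducin alpha subunit, had -1.05 (adjusted p = 0.00474) beside -0.21 for Gnat2. The other transducin subunits showed the opposite order, with Gnb1 at -0.24 (adjusted p = 0.148) beside -1.46 for Gnb3 and Gngt1 at 0.32 (adjusted p = 0.0790) beside -0.91 for Gngt2. The rod channel beta subunit Cngb1 was lower (-0.79, adjusted p = 0.00352) beside 0.23 for Cngb3. Sag, the rod arrestin, had -0.68 (adjusted p = 0.00687) beside -0.50 for Arr3. With the GC and length trends removed some of these contrasts were smaller, with Cngb1 at -0.35 beside -0.33 for Cngb3 and Gngt1 at -0.25 beside -0.54 for Gngt2. The differences within pairs were not tested.

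**Figure D5:**
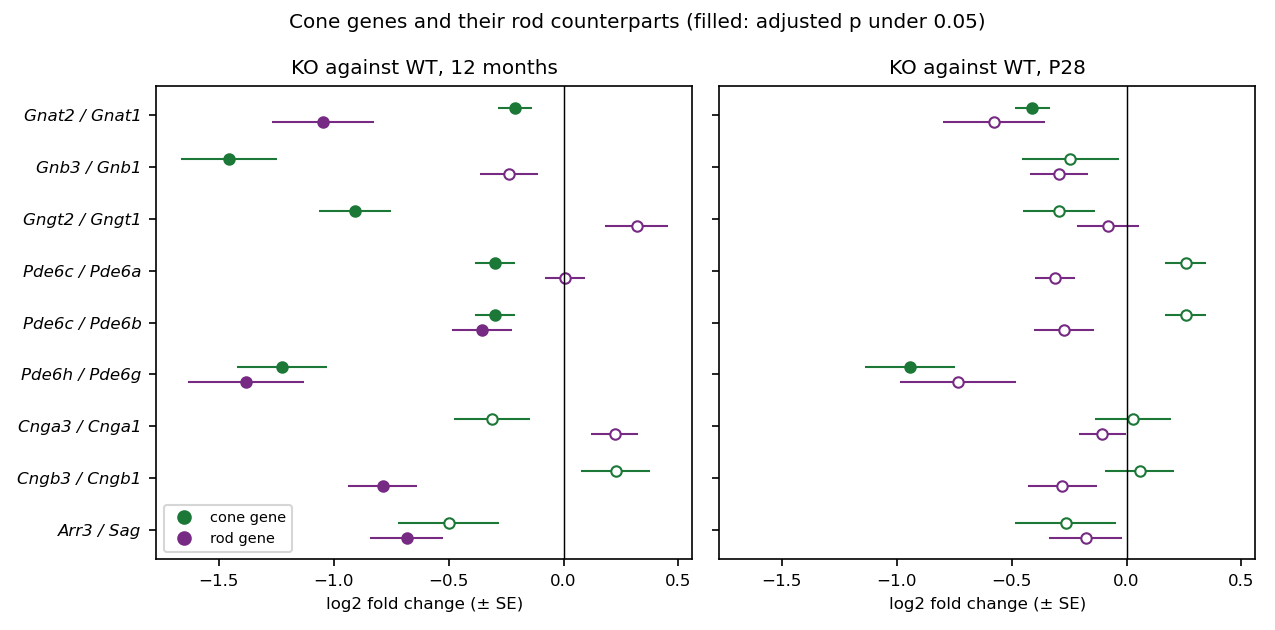
Log2 fold change of KO over WT with its standard error for the cone genes other than the opsins and their rod counterparts at 12 months (left) and P28 (right), on the deposited gene values; filled points passed an adjusted p of 0.05. The inhibitory subunits Pde6h and Pde6g lie at -1.23 and -1.38 at 12 months, when the transducin subunits lie apart; at P28 Gnb3 and Gnb1 lie at -0.24 and -0.30.

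Genes that act around the cascade in both photoreceptor types, 15 in number, included 8 lower and 2 higher in 12-month KO, with a median log2 fold change of -0.40, where 23.5% of all genes were lower and 16.1% higher. With the GC and length trends removed 1 was lower, where 6.75% of all genes were called. Unc119, a carrier of transducin, averaged 250.9 CPM in KO and 535 CPM in WT at 12 months (-1.14, limma adjusted p = 0.00398). Rd3, an inhibitor of retinal guanylate cyclase, averaged 20.8 CPM in KO and 40.7 CPM in WT (-0.97, adjusted p = 0.00438). Guca1b, a cyclase activator, averaged 146 CPM in KO and 274 CPM in WT (-0.95, adjusted p = 0.00512). Sag averaged 1737 CPM in KO and 2756 CPM in WT (-0.68, adjusted p = 0.00687), and was the gene still called with the trends removed (-0.48, adjusted p = 0.0481). At P28 limma called 0 of the 15 genes. Rd3, Guca1a and Guca1b have a second entry with the same values on an assembly patch in the deposited table, and each was counted once.

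Another 15 genes known as cone markers or as transcription factors of photoreceptors held 3 lower and 4 higher in 12-month KO, with a median of 0.05, where 39.6% of all genes were called, and 1 lower with the trends removed, where 6.75% of all genes were called. Neurod1, a photoreceptor transcription factor, averaged 522 CPM in KO and 263 CPM in WT (0.99, limma adjusted p = 0.00435). Rorb, an orphan nuclear receptor needed for photoreceptor development, averaged 436 CPM in KO and 297 CPM in WT (0.55, adjusted p = 0.00259), but with the trends removed it had 0.03 (adjusted p = 0.862). Nr2f2, another orphan nuclear receptor, averaged 25.0 CPM in KO and 14.2 CPM in WT (0.76, adjusted p = 0.00830; 0.28, adjusted p = 0.207, with the trends removed). Ccdc136 was lower (-0.66, adjusted p = 0.00444), as was Cacna2d4, a calcium channel subunit of photoreceptor terminals (-0.75, adjusted p = 0.00831; -0.60, adjusted p = 0.0458, with the trends removed). At P28 limma called 0 of these 15 genes on the deposited values, and with the trends removed it called Rorb, lower in KO (-0.43, adjusted p = 0.0381).

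Over the 12 libraries the members differed in how closely they followed each other. Pearson's r between a gene's log2 CPM and the mean of the other 9, each standardised, was 0.95 for Gngt2, 0.90 for Pde6h, 0.87 for Opn1sw and 0.79 for Opn1mw. It was 0.27 for Arr3 and -0.36 for Cngb3. The other genes tested were ranked in the same way, leaving out those with predicted-gene, clone or pseudogene names. Among the rest, those whose values followed the mean of the 10 most closely were Cox6a1 (r = 0.97), Ap1s1 (0.97), Mrpl27 (0.96) and Ccdc71 (0.96). These libraries share group, depth and the GC trend, so the correlations only describe them.

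To show the sequence at the start of genes that were lower in KO at both ages, the 250 bases before the RefSeq start sites of Opn1sw and Pde6h are printed on GRCm38.p6, each 5′ to 3′ on its gene's own strand. Of the 10 genes 6 matched a promoter entry, 7 promoters in all. The motifs searched, on both strands, were TAATCC, the core recognised by the photoreceptor factor Crx and its relatives, and AGGTCA, the half-site of nuclear receptors. They do not overlap each other here. Capitals mark the matches.
Opn1sw (chr6:29380514-29380763, minus strand): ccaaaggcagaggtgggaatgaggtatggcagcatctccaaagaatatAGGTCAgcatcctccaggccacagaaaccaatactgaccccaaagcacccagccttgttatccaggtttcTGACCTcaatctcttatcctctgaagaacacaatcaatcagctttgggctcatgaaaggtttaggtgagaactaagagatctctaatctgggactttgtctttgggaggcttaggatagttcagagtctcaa
Pde6h (chr6:136954273-136954522, plus strand, before Pde6h-202): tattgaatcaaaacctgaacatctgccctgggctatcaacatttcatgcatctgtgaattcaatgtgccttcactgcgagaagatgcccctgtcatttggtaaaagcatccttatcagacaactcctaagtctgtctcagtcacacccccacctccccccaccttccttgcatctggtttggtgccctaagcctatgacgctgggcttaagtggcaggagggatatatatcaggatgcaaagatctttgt
The Opn1sw promoter held AGGTCA once on each strand, with first bases 202 and 132 bases before the start. The Pde6h window held neither. The RefSeq window of Gnat2 is not shown, because all of its 250 bases lie inside an annotated exon of Gnat2-201, the coding form that starts at 108092789 on chromosome 3; it held TAATCC. Each motif was present in 1 of the 7 promoters of the cone genes; of 32851 windows of the same length in the table, 6.25% held TAATCC and 14.02% held AGGTCA. A match describes these letters and shows no binding.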

How the data were processed

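Poly(A) RNA of 12 mouse retina libraries was quantified by the authors with kallisto 0.45.0 (annotation Ensembl 102), collapsed to gene level by tximport 1.30.0, then TMM-normalized in edgeR 4.0.3, per the submitters' processing notes. Those notes name human GRCh38.p7, while the identifiers are mouse. The gene values deposited by the authors are a signal, CPM scaled by TMM, and the transcript values deposited by the authors are RPKM; neither file holds counts, so no count model was run. Genes at 1 CPM or more in at least 3 libraries were tested with limma 3.58.1 (R 4.3.3) on log2(CPM + 1), with 4 group means, a trended eBayes and Benjamini-Hochberg adjustment over all genes; fold changes are on this scale and understate those of low genes. Transcripts at 0.5 RPKM or more in at least 3 libraries were tested on log2(RPKM + 0.1). GC and length trends were removed per library with splines of 5 degrees of freedom on GENCODE M21 transcripts, which cover 98.7% of tested genes. For depth, the most frequent low value of RPKM times length in each library was taken as 1 read. The floor of 3 reads covers counting error only. All 10 members, their transcripts called at 12 months and the 4 genes of each other list with the smallest p were named. The other tested transcripts were named only in part. Gnb1, Gngt1, Cacna2d4 and the single glial and rod markers were added after their values were seen. The members and lists were chosen with earlier results of these data known. Steps were tested on simulated data. Alternatives were other pseudocounts, filters and scalings, summed RPKM, a replicate block, a sex term, male libraries, the compared groups alone, trend removal and leaving out each library; summed transcript reads were added after seeing the data. Tables used pandas 2.3.3 and numpy 2.4.6 under Python 3.11.15, and plots matplotlib 3.10.9. Raw reads were not analysed here. A rod gene of the marker list is not reported here, and rod counts and sums leave it out.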

Additional observations from a re-analysis of the deposited data

Results flagged for a closer look

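Pde6c was flagged because every KO library lay below every WT library at 12 months and above every WT library at P28. The difference of the KO effect between the ages was -0.56 on the log2 scale, with a limma adjusted p of 0.0647 over all genes tested, so it did not pass the correction. The 12-month KO and WT libraries held 0 and 2 libraries with Xist above 100 CPM, and the P28 KO and WT libraries held 2 and 0. With a sex term Pde6c had log2 fold changes of -0.24 (limma adjusted p = 0.105) at 12 months and 0.20 (adjusted p = 0.485) at P28, with a difference of -0.45 (adjusted p = 0.235). With male libraries only it had -0.16 at 12 months and 0.28 at P28.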

How the results depend on the processing

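Of the 10 cone genes the number called at P28, 3 as reported, was 1 with no expression filter, 1 with a replicate block and 0 with a sex term, with male libraries only or with only the groups compared; it ranged from 0 to 4 when single libraries were left out. At 12 months, 7 as reported, it was 5 to 8 with single libraries left out, and over both ages, 6 as reported, it was 6 to 7. The 12-month count over all genes tested, 6536 as reported, moved as well, from 3552 to 7761 with single libraries left out. Such counts over all genes are given above for P28, and not for the other comparisons or for transcripts. The difference between ages, 0 as reported, ranged from 0 to 2 with single libraries left out. Within WT the age comparison, 0 as reported, gave 1 with quantile normalization, summed transcript RPKM, the replicate block or transcript reads summed per gene, 2 with GC and length trends removed, 3 with only the groups compared and 0 to 2 with single libraries left out. Within KO it gave 5 as reported and 4 with GC and length trends removed. It gave 3 with no filter, a sex term or only the groups compared, and 3 to 5 with single libraries left out. Transcripts at 12 months, 12 as reported, numbered 7 with no filter and 0 to 18 with single libraries left out, and at P28, 0 as reported, 0 to 3. The log2 ratio of the opsins ranged from -0.35 to -0.18 with single libraries left out. With GC and length trends removed Cngb3 reversed to -0.33 (limma adjusted p = 0.0446) at 12 months and -0.24 (adjusted p = 0.0302) over both ages. Deviations from group means correlated between same-numbered KO and WT libraries at 0.0989, 0.308 and 0.156 at 12 months. Differently numbered ones ran from -0.308 to 0.131. At P28 same-numbered libraries had 0.0879, -0.107 and 0.0476, and differently numbered ones ran from -0.136 to 0.106. These values do not settle whether same-numbered libraries were paired. With the replicate block 6 genes were called at 12 months and 6 over both ages. Causes other than fewer libraries, or more genes tested, were not tested. Limits are 3 libraries per group, unbalanced sexes and strand use that is not stated.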
